A study of Homo sapiens with 12 samples.

Results

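In Hs578T cells, a breast cancer cell line of mesenchymal character, 2 single-stranded oligodeoxynucleotides (ODNs) were set against a double-stranded DNA oligonucleotide in 2 forms. These 4 arrays of the 12 in the series were chosen by cell line and array batch alone. The single-stranded group held 1 array of cells treated with ODN2006 and 1 of cells treated with its control, ODN2006 CTL. The double-stranded group held the set 2 arrays of CDH13 U and CDH13 M, which share 1 sequence from the CDH13 gene and differ in that the CpG cytosines of M are methylated. All cells received 200 nM of oligonucleotide with the liposomal reagent DOTAP for 24 h, so dose and time were matched. No untreated cells and no cells given DOTAP alone were used here. Each group thus joins 2 different oligonucleotides, and the spread within a group holds any difference between them. The labels call the set 2 arrays biological replicates of set 1 but give no set number for the ODN arrays, so culture and kind of oligonucleotide cannot be told apart. The 2 set 1 arrays of Hs578T, from another array batch, and the 4 batch 2 arrays of BT-20, a breast cancer line with epithelial markers, serve for comparison.

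The sequences are shown because the groups differ in more than the number of strands. Capitals mark the CpG dinucleotides, and in ODN2006 CTL the bases at the places where ODN2006 has them, all 5′ to 3′.

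ODN2006: tCGtCGttttgtCGttttgtCGtt

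ODN2006 CTL: tGCtGCttttgtGCttttgtGCtt

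CDH13 U, upper strand: tCGgatCGccCGgcaCGggcagggtgaggg

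CDH13 U, complementary strand: ccctcaccctgccCGtgcCGggCGatcCGa

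ODN2006 and its control are 24 bases long, differ at 8 positions, hold 14 thymines and are 41.7% G or C. The CDH13 oligonucleotide is 30 base pairs long, has 4 CpG on each strand and is 76.7% G or C. In CDH13 M the C of every capitalised CG is methylated on both strands. Sequence, length, base composition and strandedness therefore change together between the groups. DNA that enters a cell can be read by several sensors. TLR9, an endosomal receptor of immune cells, binds unmethylated CpG DNA and signals through MYD88 to NF-kB, whereas cytosolic sensors of double-stranded DNA signal towards type I interferon. TLR9 itself was at background in every array. Its values were 2.31 with ODN2006, 2.32 with ODN2006 CTL, 2.32 with CDH13 M and 2.33 with CDH13 U.

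Values are log2 signals of Affymetrix HG-U133 Plus 2.0 arrays after GCRMA, which corrects for background and normalizes, so 1 unit is a doubling. The number of arrays limits the precision. The 4 arrays were alike in general quality, with 34.2% to 35% of probe sets at 5 or above and a GAPDH 3′ minus 5′ difference of -0.07 to -0.03. They carried the markers of the line. The median of the mesenchymal markers was 12.73 to 13.37 and that of the epithelial markers 3.21 to 3.52. The control probe set for Alu repeats read 15.33 with ODN2006 and 15.19 with ODN2006 CTL, against 14.84 with CDH13 M and 15.08 with CDH13 U. Over the genes tested, the ODN arrays correlated with each other at 0.9863 and the set 2 arrays at 0.9842, while arrays of different kind correlated at 0.9575 to 0.9778. These correlations are across genes, which are not independent replicates. TBP and HPRT1, which are often used for normalization, differed by 0.12 ± 0.18 (SE) and -0.20 ± 0.15 (limma adjusted p = 0.73 and 0.491).

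Of 9531 genes with a value of at least 5 in at least 2 of the 4 arrays, 13 were higher and 3 lower with the single-stranded ODNs at a limma adjusted p under 0.05. These are 0.136% and 0.0315% of the genes tested, and 1925 genes had an unadjusted p under 0.05. Beyond these calls the arrays stood apart more widely. Both ODN arrays lay above both set 2 arrays for 22.7% of genes and below both for 32.6%, and such genes are called apart here. This split depended on the scaling, and with each array centred on housekeeping genes 3229 genes lay above and 2069 below, against 2159 and 3111 as deposited. With the set 1 arrays of Hs578T added to the fit to estimate the spread, 1.25% of genes were called higher and 0.976% lower. With the BT-20 arrays of batch 2 added instead, the shares were 3.87% and 5.16% of 10375 genes. The number of calls thus rose from 16 to 212 and 937 as arrays were added, while the difference itself stayed that between the same 4 arrays. Without CDH13 M of set 2, and likewise without CDH13 U of set 2, no gene was called, and without ODN2006 there were 6 calls. For 13 of the 16 genes both arrays on the lower side were under 5, and with values under 5 raised to 5 FOXL1 alone passed.

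Of the 13 genes that rose, FOXL1 had the largest difference, also with values under 5 raised to 5. It is a forkhead transcription factor of mesenchymal cells. It read 8.25 with ODN2006 and 8.08 with ODN2006 CTL, but 3.05 with CDH13 M and 3.06 with CDH13 U. The set 2 values are at background, so raising values under 5 to 5 gives a rise of at least 8.99-fold. The adjusted p of 0.00371 is that of the values as deposited. The set 1 arrays, at 3.30 and 3.05, were at background as well.

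SLC6A13, a transporter of the inhibitory amino acid GABA, read 6.83 and 7.04 with the ODNs and 2.90 and 2.78 in set 2. The rise was at least 3.82-fold. GP5, a platelet glycoprotein, read 6.64 and 6.89 against 2.39 and 2.41, at least 3.40-fold, and both of its probe sets lay apart. The adjusted p was 0.00518 for both genes with the values as deposited, and neither passed with values under 5 raised to 5. The adaptor SHC4 and the kinase NEK10 likewise left the background, with ODN values of 5.94 to 5.97 and 5.70 to 5.94. MFNG, a glycosyltransferase that modifies Notch receptors, reached 5.47 and 5.54 from 3.03 in both set 2 arrays. RSKR rose too, with ODN values of 5.48 and 5.21. For SHC4 the set 1 values, 4.71 and 3.77, lay between the groups. Only 1 of 2 probe sets reached 5 in at least 2 of the 4 arrays for FOXL1, SLC6A13, SHC4 and RSKR, and 1 of 3 for MFNG.

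6 of the 13 genes that rose are not protein coding in RefSeq. LMO7DN, a long non-coding RNA, read 7.94 and 7.00 with the ODNs and 2.53 and 2.55 in set 2. The rise was at least 5.54-fold, and the adjusted p of 0.022 is that of the values as deposited. LINC00597, also a long non-coding RNA, read 6.74 and 6.56 against 3.53 and 3.37. The others were the transcribed pseudogenes POLR2J4, LOC389834 and PKD1P1, of which POLR2J4 did not pass in the fit with 6 arrays (adjusted p = 0.0588), and a probe set annotated to the microRNA locus MIR3682. The last was well above background on both sides, with 9.57 and 9.45 against 7.16 and 6.97, a rise of 2.44 ± 0.15 on the log2 scale (SE, adjusted p = 0.0183). The value is that of a transcript matched to the locus and not of the mature microRNA. A pseudogene can share probes with its parent gene, and these 3 values are uncertain for that reason.

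The 3 genes that fell were B4GALNT1, ISM1 and SSX3. B4GALNT1, which makes the gangliosides GM2 and GD2, read 4.10 and 4.00 with the ODNs and 6.39 and 6.42 in set 2. It fell at least 2.65-fold, and the adjusted p of 0.0151 is that of the values as deposited. Its set 1 values, 4.89 and 4.86, lay between the groups. ISM1, a secreted inhibitor of angiogenesis, read 4.63 and 4.61 against 7.09 and 6.81, with 7.30 and 7.39 in set 1. SSX3, a cancer-testis antigen, read 4.97 and 5.17 against 7.11 and 7.17, but 4.62 and 5.44 in set 1, so here the set 2 arrays stood above the other 4. Another probe set of SSX3 with signal differed by -0.05 and did not lie apart. For B4GALNT1 and ISM1, 1 of 2 probe sets reached 5 in at least 2 of the 4 Hs578T arrays of batch 2.

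**Figure D1:**
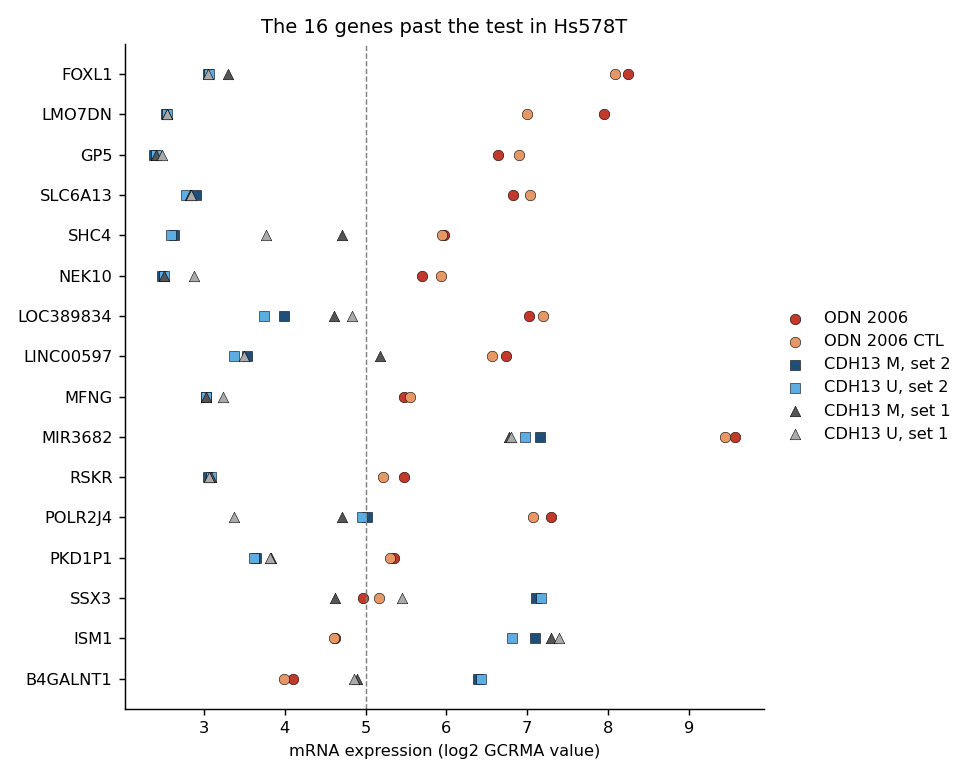
Log2 GCRMA value of the 16 genes past the limma test in the 6 Hs578T arrays, 1 point per array, with the value of 5 used as the limit of detection as a dashed line. For 13 of the 16 genes both arrays on the lower side were under 5, and the set 1 arrays, which were not in the test, lay near set 2 for FOXL1 and ISM1 and near the ODN arrays for SSX3.

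The genes were then read by function in 29 lists. Counts of members are descriptions beside the background of all genes, and no list was tested. No member of any list passed the test in the 4 arrays. The lowest medians were those of mitosis, heat shock proteins and DNA replication. The highest were those of the epithelial markers, with 7 members tested (0.76), cytokines (0.51), immediate early genes (0.48), cholesterol synthesis (0.44) and collagen and matrix genes (0.43). The epithelial median rests on 7 of the 21 markers on the array, and a dim gene can pass the filter through the ODN arrays alone. Against set 1 it was -0.12. Over all epithelial markers the ODN arrays read lower, with medians of 3.30 and 3.21 against 3.52 and 3.45 in set 2.

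All 25 mitosis genes tested were lower in both ODN arrays than in both set 2 arrays, where 32.6% of all genes were. Their median difference was -0.64, from -1.45 to -0.30, against -0.06 over all genes. DLGAP5, which stabilises the kinetochore fibres of the spindle, read 9.64 and 9.92 with the ODNs, 11.14 and 11.32 in set 2 and 10.79 and 10.92 in set 1 (difference -1.45 ± 0.17, adjusted p = 0.0861 in 4 arrays, 0.034 in 6 and 0.00573 in 8). PLK1, the kinase that drives entry into and passage through mitosis, read 8.34 and 8.38 against 9.32 and 9.63. The checkpoint kinases BUB1 and TTK differed by -0.94 ± 0.15 and -0.86 ± 0.14. None of these groups overlapped. In the fit with 6 arrays 10 mitosis genes fell, and in that with 8 arrays 14 did.

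The array medians show where the difference lay. Relative to the mean of set 2, the median mitosis gene stood at -0.77 with ODN2006, -0.64 with ODN2006 CTL, -0.09 with CDH13 M and 0.09 with CDH13 U, so both ODNs shared the lower level. Set 1 lay at -0.32 and -0.14, below set 2 but above the ODN arrays. Against set 1 in place of set 2, 18 of the 25 genes were lower in both ODN arrays, where 43.7% of all genes were, and 1 was higher, where 22.7% of all genes were.

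DNA replication genes followed, with 22 of 25 lower in both ODN arrays, all 25 lower on average and a median of -0.44. FEN1, which trims Okazaki fragments, read 10.43 and 10.56 against 11.04 and 11.07. CCNE1, the cyclin of entry into S phase, read 5.90 and 5.99 against 7.34 and 6.58, and the helicase subunit MCM5 read 10.70 and 10.68 against 11.12 and 11.29. In set 1 MCM5 read 10.67 and 10.86, which overlaps the ODN arrays. With 8 arrays 6 replication genes fell, and with 6 arrays 0 did.

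Heat shock proteins, the chaperones induced by HSF1, were lower in both ODN arrays for 12 of the 13 members tested, with a median of -0.52. The other member was lower on average. DNAJA1, a co-chaperone of HSP70, read 11.98 and 12 with the ODNs and 12.99 and 12.80 in set 2, and its set 1 values were 12.77 and 12.89. DNAJB1, another HSP70 co-chaperone, read 9.19 and 9.48 against 10.39 and 10.24 (difference -0.98 ± 0.17, adjusted p = 0.124 in 4 arrays, 0.0424 in 6). HSPH1 and HSPE1 differed by -0.60 ± 0.17 and -0.52 ± 0.14. Against set 1, 12 of the 13 members were lower in both ODN arrays. Over all genes the share that was lower was 43.7% against set 1 and 32.6% against set 2.

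Promoter motifs were described as well, and those of this paragraph were added after the values were seen. Their shares are properties of the lists and give no support to the array differences. In the RefSeq windows of GRCh38.p14, from 250 bases before to 50 after each start, TTTGAA, known as the cell cycle homology region, was found on either strand in 65.2% of the 23 windows matched to mitosis genes and 15.2% of all promoters. Among the windows of all genes tested it was in 10.9%, and in those of DNA replication and heat shock genes in 3.4% and 9.1%. The CCAAT box was found in 87.0% of the mitosis windows, 34.6% of all promoters and 35.5% of the windows of all genes tested. It was also in 92.0% of the windows of ER folding genes and 85.0% of those of cholesterol synthesis genes, lists with positive medians. GAANNTTC, the core of the heat shock element, was found in 40.9% of the 22 windows matched to heat shock genes. It was in 6.8% of all promoters and 4.9% of the windows of all genes tested. These matches are descriptions and not binding sites. The windows of PLK1, DLGAP5 and DNAJA1 are printed with these motifs in capitals, as examples with a match among genes with large differences. Not every such gene had one. BUB1 had 0 matches to TTTGAA, and HSPE1 and HSPH1 had 0 to GAANNTTC. DNAJB1, with a larger difference than DNAJA1, had 0, 2 and 1 matches to GAANNTTC in its windows. No match overlapped another of the motifs searched.

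PLK1, chr16:23678639-23678938, plus strand: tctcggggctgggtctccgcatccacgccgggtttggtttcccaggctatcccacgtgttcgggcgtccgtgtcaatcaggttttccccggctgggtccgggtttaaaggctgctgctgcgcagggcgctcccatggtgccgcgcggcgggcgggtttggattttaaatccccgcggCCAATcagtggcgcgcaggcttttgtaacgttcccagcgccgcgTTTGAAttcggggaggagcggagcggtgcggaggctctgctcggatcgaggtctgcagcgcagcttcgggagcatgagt

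DLGAP5, chr14:55191536-55191835, minus strand: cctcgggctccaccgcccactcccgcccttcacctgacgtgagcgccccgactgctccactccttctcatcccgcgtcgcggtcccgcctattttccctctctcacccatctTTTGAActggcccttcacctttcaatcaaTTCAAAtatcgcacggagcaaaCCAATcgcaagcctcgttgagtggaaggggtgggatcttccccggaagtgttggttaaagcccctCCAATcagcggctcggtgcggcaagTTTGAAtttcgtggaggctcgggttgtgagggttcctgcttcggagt

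DNAJA1, chr9:33025023-33025322, plus strand: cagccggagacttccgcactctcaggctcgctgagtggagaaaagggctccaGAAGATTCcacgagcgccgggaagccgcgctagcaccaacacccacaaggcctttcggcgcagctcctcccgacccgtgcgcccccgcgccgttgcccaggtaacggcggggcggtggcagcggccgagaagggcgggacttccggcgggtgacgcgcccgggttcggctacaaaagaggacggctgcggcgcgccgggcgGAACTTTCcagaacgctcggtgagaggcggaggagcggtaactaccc

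In the other direction, 22 of 23 collagen and matrix genes were higher in both ODN arrays, where 22.7% of all genes were, and the median difference was 0.43. The differences were small, from 0.04 to 0.86, for genes near the top of the array's range. COL5A1, a fibrillar collagen chain, read 12.94 and 12.96 with the ODNs and 12.36 and 12.53 in set 2, with 12.89 and 12.71 in set 1. The matrix glycoprotein THBS1 read 13.42 and 13.28 against 12.79 and 12.80, but 13.54 and 13.47 in set 1, above the ODN arrays. LUM and COL6A1 differed by 0.46 ± 0.15 and 0.43 ± 0.15. Against set 1, 17 of the 23 genes were higher in both ODN arrays, and 2 collagen and matrix genes rose in the fit with 8 arrays.

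Genes of the TGF-beta family were mixed, with 9 of 19 higher and 2 lower in both ODN arrays. Over all genes 22.7% were higher and 32.6% lower. LTBP2, which binds matrix microfibrils, read 9.07 and 8.67 against 7.85 and 7.63, and INHBA, the activin subunit, read 13.83 and 13.31 against 12.27 and 12.76. In set 1 LTBP2 read 8.67 and 8.42 and INHBA 13.15 and 13.21, near the ODN arrays. Of the mesenchymal markers, 17 of 23 were higher and 1 was lower. This list shares members with the collagen and matrix list, COL5A1 among them, so the 2 counts are not independent. The lower one was CDH11, a mesenchymal cadherin, at 12.12 and 12.35 against 12.66 and 12.80. Of the 7 epithelial markers that reached 5 in 2 arrays, 5 were higher, among them the desmosomal protein DSP at 9.21 and 8.70 against 7.84 and 8.18, but DSP stood at 10.01 and 9.88 in set 1.

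Of the 11 inflammatory cytokines tested, 5 were higher in both ODN arrays, where 22.7% of all genes were, and 4 were lower on average. Relative to set 2, their median stood at 1.62 with ODN2006 and 0.08 with ODN2006 CTL, each of which is 1 array. IL1B, the cytokine interleukin-1 beta, read 9.55 with ODN2006 and 7.95 with ODN2006 CTL against 5.52 with CDH13 M and 4.96 with CDH13 U. Set 1, at 7.64 and 7.90, reached the level of ODN2006 CTL. The difference from set 2 was 3.51 ± 0.55, an 11.4-fold higher mean (adjusted p = 0.112 in 4 arrays, 0.0424 in 6, 0.0148 in 8). In BT-20 IL1B was at background, at 2.94 to 3.08, so the p with 8 arrays is no added support. The 2 probe sets of IL1B differed by 3.07 and 3.51.

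CCL2, a chemokine that attracts monocytes, read 7.46 and 7.27 with the ODNs, 5.78 and 5.49 in set 2 and 6.52 and 7.08 in set 1. Its difference from set 2 was 1.73 ± 0.17 (adjusted p = 0.0768 in 4 arrays, 0.0386 in 6). IL11 and LIF, cytokines of the IL-6 family, read 8.78 and 8.04 with ODN2006 but 7.58 and 6.54 with ODN2006 CTL, against 6.98 to 7.11 and 6.41 to 6.43 in set 2. For both, the array of ODN2006 was thus the one that stood out.

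The immediate early genes, which are transcribed within minutes of a signal, had a median difference of 0.48, and 6 of 20, or 30%, were higher in both ODN arrays, near the 22.7% of all genes. The array median was 0.82 with ODN2006 and 0.20 with ODN2006 CTL, and the set 2 arrays themselves differed, at -0.26 for CDH13 M and 0.26 for CDH13 U. EGR1, a zinc finger factor, read 13.16 and 12.22 against 11.28 and 11.21, with 10.65 and 10.56 in set 1. DUSP1, a phosphatase that switches off MAP kinases, read 10.96 and 10.19 against 8.39 and 9.30, while set 1 was at 10.02 and 10.52. CCN2 read 14.44 and 14.37 against 13.13 and 13.74, with 14.19 and 14.43 in set 1. With 8 arrays 5 of the 20 genes rose, IER2, EGR1, DUSP1 and CCN2 among them, and with 6 arrays 0 did. CCN2 was at background in BT-20, at 2.25 to 2.26.

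Of the 14 NF-kB subunits and targets, 4 were higher and 3 lower in both ODN arrays, beside 22.7% and 32.6% of all genes. The median was 0.12. NFKBIZ, an atypical nuclear inhibitor of the family, read 10.91 and 10.63 against 9.41 and 9.21 (difference 1.46 ± 0.18, adjusted p = 0.0861 in 4 arrays, 0.0386 in 6). One further probe set of NFKBIZ went the other way, by -0.34. NFKBIA, the classical feedback inhibitor, differed by 0.50 ± 0.22, with 10.48 and 10.34 against 10.17 and 9.65.

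Type I interferon, the response that cytosolic double-stranded DNA is known to induce, acts through interferon-stimulated genes. Of 21 such genes tested, 7 were higher and 1 lower in both ODN arrays, beside 22.7% and 32.6% of all genes. Their median was 0.18, and 19 of the 40 on the array did not reach 5 in 2 arrays. IFITM1, which blocks virus entry, read 6.14 and 5.69 with the ODNs against 4.19 and 4.17 in set 2, where it was at background. IRF9, a subunit of the interferon-activated factor, read 7.73 and 7.88 against 6.83 and 7.23. The sensor RIGI read 7.35 and 7.20 against 6.60 and 6.52, but 7.16 and 7.51 in set 1, so that the ODN and set 1 arrays overlapped.

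IDO1, the tryptophan-degrading enzyme induced by interferon gamma, read 2.44 and 3.75 with the ODNs, 6.44 and 6.45 in set 2 and 7.46 in both set 1 arrays. The ODN values are at background, and with values under 5 raised to 5 the fold is at least 2.72. With the values as deposited the adjusted p was 0.0974 in 4 arrays, 0.0386 in 6 and 0.00967 in 8. In BT-20 IDO1 was at background, at 2.09 to 2.23, so the p with 8 arrays is no added support. The neighbours of IDO1 in the list did not go the same way. GBP3, IRF1 and TAPBP differed by 0.66, 0.42 and 0.37, and 8 of 17 members were higher and 3 lower in both ODN arrays. Over all genes 22.7% were higher and 32.6% lower. Of 15 nucleic acid sensing genes tested, 0 were higher and 7 lower, with a median of -0.11. MYD88, the adaptor of TLR9, read 9.09 and 9.11 against 9.60 and 9.42.

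The ATF4-CHOP list, the transcription branch of the integrated stress response, spread in both directions, with a median of -0.01. Of 16 members 7 were higher and 8 lower in both ODN arrays, beside 22.7% and 32.6% of all genes. CHAC1, which degrades glutathione and is a target of ATF4, was the lowest. Its values were 5.89 with ODN2006 and 5.98 with ODN2006 CTL, against 8.68 with CDH13 M and 7.87 with CDH13 U, and 8.75 and 8.83 in set 1. The ODN arrays lay below all 4 double-stranded arrays, and the difference from set 2 was -2.34 ± 0.29, a 5.05-fold lower mean (adjusted p = 0.0934 in 4 arrays, 0.037 in 6, 0.046 in 8). The promoter of CHAC1 is printed with the 1 match to the ATF4 composite element TGATGNAA, read on its other strand, in capitals. The same letters were found in 16.0% of the 25 windows matched to ATF4-CHOP genes, 3.6% of all promoters and 2.0% of the windows of all genes tested. They were also in 35.7% of the windows of amino acid transporters and 31.6% of those of cytosolic aminoacyl-tRNA synthetases. The median differences of these 2 lists were 0.01 and -0.09.

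CHAC1, chr15:40953221-40953520, plus strand: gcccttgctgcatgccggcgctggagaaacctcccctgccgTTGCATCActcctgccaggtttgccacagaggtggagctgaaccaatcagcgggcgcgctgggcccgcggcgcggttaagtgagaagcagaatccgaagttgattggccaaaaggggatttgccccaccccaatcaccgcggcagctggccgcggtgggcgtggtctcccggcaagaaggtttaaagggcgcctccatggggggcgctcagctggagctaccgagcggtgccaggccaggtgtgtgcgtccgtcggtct

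Other stress-responsive members lay on either side. STC2, a secreted glycoprotein induced by ER stress, read 12.92 and 12.41 against 11.26 and 11.79. Its 2 probe sets with signal differed by 0.24 and 1.14, and only 1 lay apart. DDIT4, an inhibitor of mTORC1, read 10.50 and 11.00 against 11.59 and 12.13. Genes that ATF4 also controls did not share 1 direction. PYCR1, of proline synthesis, differed by 1.08 ± 0.23, while GOT1 differed by -0.47 ± 0.16, and of the amino acid transporters 3 of 9 were higher and 2 lower in both ODN arrays. In the ER folding list, 7 of 22 were higher and 1 lower, beside 22.7% and 32.6% of all genes. CALR read 10.67 and 10.56 against 10.04 and 10.08. Of 17 cytosolic aminoacyl-tRNA synthetases, 2 were higher and 8 lower, with differences of -0.40 to 0.36.

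**Figure D2:**
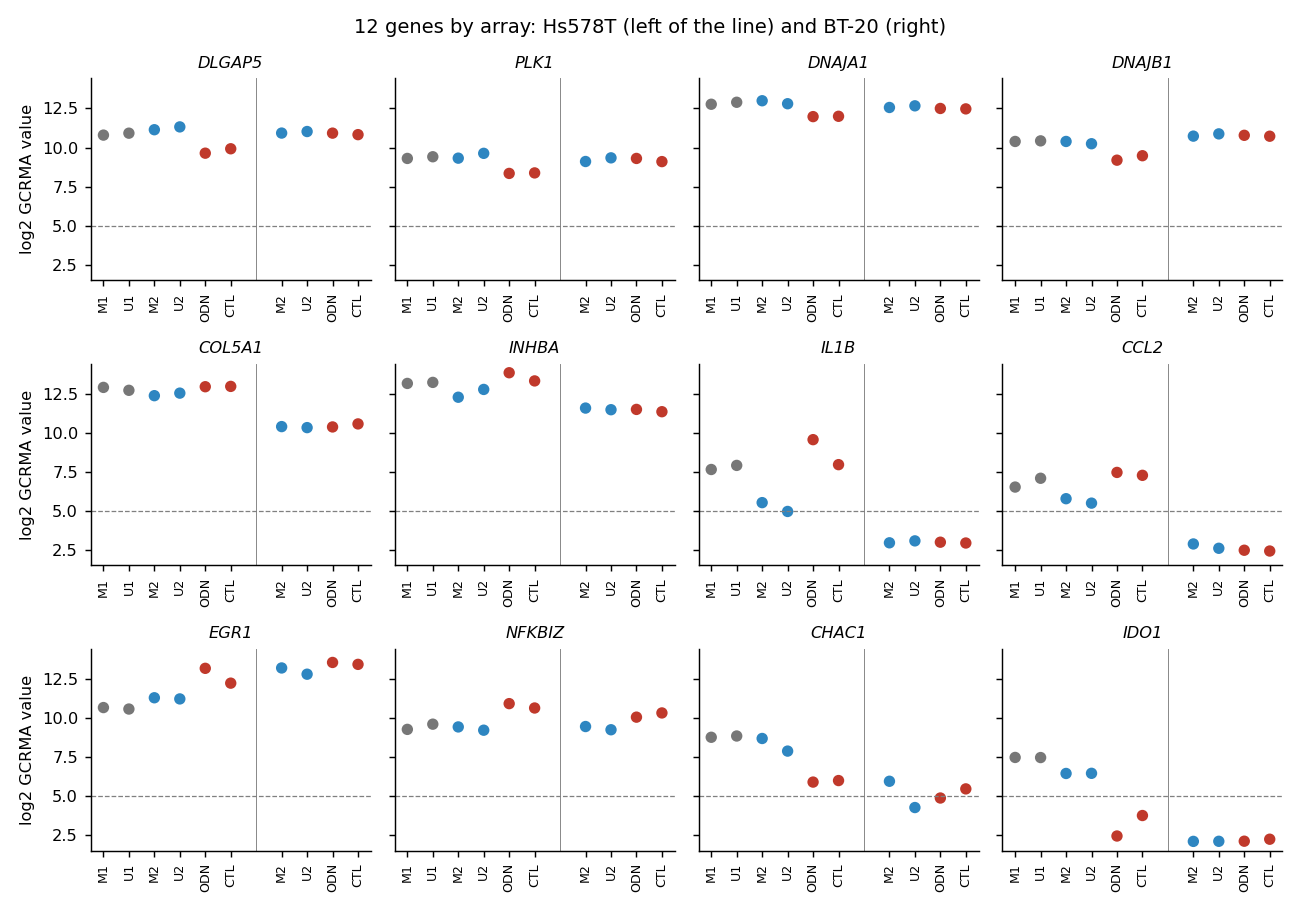
Log2 GCRMA values of 12 genes in the 6 Hs578T arrays (left of each vertical line: set 1 M1 and U1, set 2 M2 and U2, ODN2006 and ODN2006 CTL) and the 4 batch 2 arrays of BT-20 (right), 1 point per array, with 5 as a dashed line. CHAC1 and IDO1 are low in both ODN arrays of Hs578T against all 4 double-stranded arrays, whereas for IL1B and INHBA the set 2 arrays are the low ones and set 1 lies nearer to the ODN arrays.

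Genes of cholesterol synthesis had a median difference of 0.44. Among them 9 of 17 were higher and 1 lower in both ODN arrays, beside 22.7% and 32.6% of all genes. Here ODN2006 CTL led, with an array median of 0.74 against 0.14 for ODN2006. MVK, mevalonate kinase, read 7.31 and 7.88 against 6.20 and 6.63, and HSD17B7, a later enzyme of the pathway, read 8.95 and 8.88 against 8.20 and 8.09. INSIG1, which retains the SREBP activators in the ER, read 11.63 and 12.18 against 11.37 and 11.22. Probe sets with signal differed by 0.59 to 1.18 for MVK and 0.22 to 0.61 for INSIG1, and only 1 of each gene lay apart. Of 10 fatty acid synthesis genes, 4 were higher and 2 lower. ACSS2, which makes acetyl-CoA from acetate, read 7.04 and 7.48 against 5.88 and 6.36, and SREBF1 read 5.58 and 6.92 against 6.92 and 7.35.

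The remaining lists were lower or near the background. Over all genes 32.6% were lower and 22.7% higher in both ODN arrays. Of the NRF2 antioxidant targets 12 of 18 were lower and 1 higher, with HMOX1, haem oxygenase, at 6.90 and 7.26 against 8.20 and 8.03. Of the oxidative phosphorylation genes 13 of 21 were lower and 0 higher, by a median of -0.20, and NDUFS3 differed by -0.81 ± 0.20. Of the lysosome and autophagy genes 10 of 20 were lower and 6 higher, with GLA, alpha-galactosidase, at 8.58 and 8.60 against 9.58 and 9.27. The 17 ribosomal protein genes differed by -0.15 to 0.10, and 12 housekeeping genes by -0.30 to 0.20. Of 17 DNA methylation genes 8 were lower and 2 higher. GADD45B, which the list holds for its link to demethylation and which is also a stress gene, read 11.93 and 11.66 against 10.70 and 10.65, and TET3 read 7.22 and 7.65 against 8.54 and 7.96.

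Of the p53 targets 3 of 11 were higher and 1 lower in both ODN arrays, beside 22.7% and 32.6% of all genes. The growth arrest gene GADD45A read 14.11 and 13.56 against 12.09 and 12.89, and the apoptosis gene BAX read 7.17 and 7.21 against 7.79 and 8.11. Of the hypoxia and glycolysis genes 5 of 20 were higher and 4 lower. PFKFB4, a regulator of glycolysis, had the smallest p of that list, with 6.98 and 6.63 against 4.02 and 4.58. The rise was at least 3.50-fold with values under 5 raised to 5. With the values as deposited the adjusted p was 0.0768 in 4 arrays and 0.0369 in 6. Of the nuclear-retained transcripts 3 of 10 were higher and 4 lower, and the splicing factor LUC7L3 differed by -0.47 ± 0.17, with its probe sets running from -0.50 to 2.52.

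By class of gene, of 211 long non-coding RNAs tested, 49.8% were higher and 11.4% lower in both ODN arrays, with a median difference of 0.29. Of 9217 protein-coding genes, 21.8% were higher and 33.3% lower, with a median of -0.07. A dim gene can pass the filter through the ODN arrays alone, and 14 of the 211 were under 5 in both set 2 arrays. Of the 166 long non-coding RNAs at 5 or more in all 4 arrays, 50.6% were higher and 9.6% lower, beside 21.9% and 33.3% of 8734 protein-coding genes. The difference between the classes was not tested. In the fit with 8 arrays 50 of the 211 long non-coding RNAs rose and 2 fell, beside 317 and 507 of the 9217 protein-coding genes. Over all genes of that fit the shares were 3.87% and 5.16%. RNAs dim in set 2 were not separated in these counts. The Alu control probe set given above was also highest in the ODN arrays, and its part in this was not tested.

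Were these differences shared by BT-20? There, in the same 8-array fit, 0 of 10375 genes passed at an adjusted p under 0.05 by limma, and 534 had an unadjusted p under 0.05. The difference between the lines passed the test for 28 genes, 0.27% of those tested, of which 21 had the more positive difference in Hs578T. Of the 16 genes called in Hs578T, 14 were among these, all but POLR2J4 and SSX3. The 16 genes were picked by their difference in the same Hs578T arrays, and most were at background in BT-20. This overlap is therefore not independent of those calls. FOXL1, at 3.06 and 3.04 with the ODNs and 3.05 and 3.04 with CDH13 M and U in BT-20, was at background in all 4. CCL2 passed as well, with a difference of 2.02 ± 0.215 between the lines (adjusted p = 0.0237), although it was at background in BT-20.

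The mitosis genes had a median of 0.02 in BT-20, with 7 of 25 higher and 2 lower in both ODN arrays, beside 21.3% and 20.6% of all genes. DLGAP5 read 10.92 and 10.82 with the ODNs and 10.92 and 11.02 with CDH13 M and U (difference between the lines -1.35 ± 0.19, adjusted p = 0.0646). Heat shock proteins had a median of -0.07 in BT-20 and collagen and matrix genes of -0.09. No member of these 3 lists passed the test of the difference between the lines. DNA replication genes were lower in both ODN arrays for 14 of 25 in BT-20, by a median of -0.08.

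Cholesterol synthesis genes had a positive median in both lines. In BT-20 16 of 17 were higher in both ODN arrays and 0 lower, with a median of 0.60. INSIG1 read 9.95 and 10.43 with the ODNs and 8.15 and 8.24 with CDH13 M and U, a difference of 2.00 against 0.61 in Hs578T, and DHCR7, the last enzyme of the pathway, differed by 1.25 against 0.65. The difference between the lines did not pass for either gene (adjusted p = 0.153 and 0.347).

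**Figure D3:**
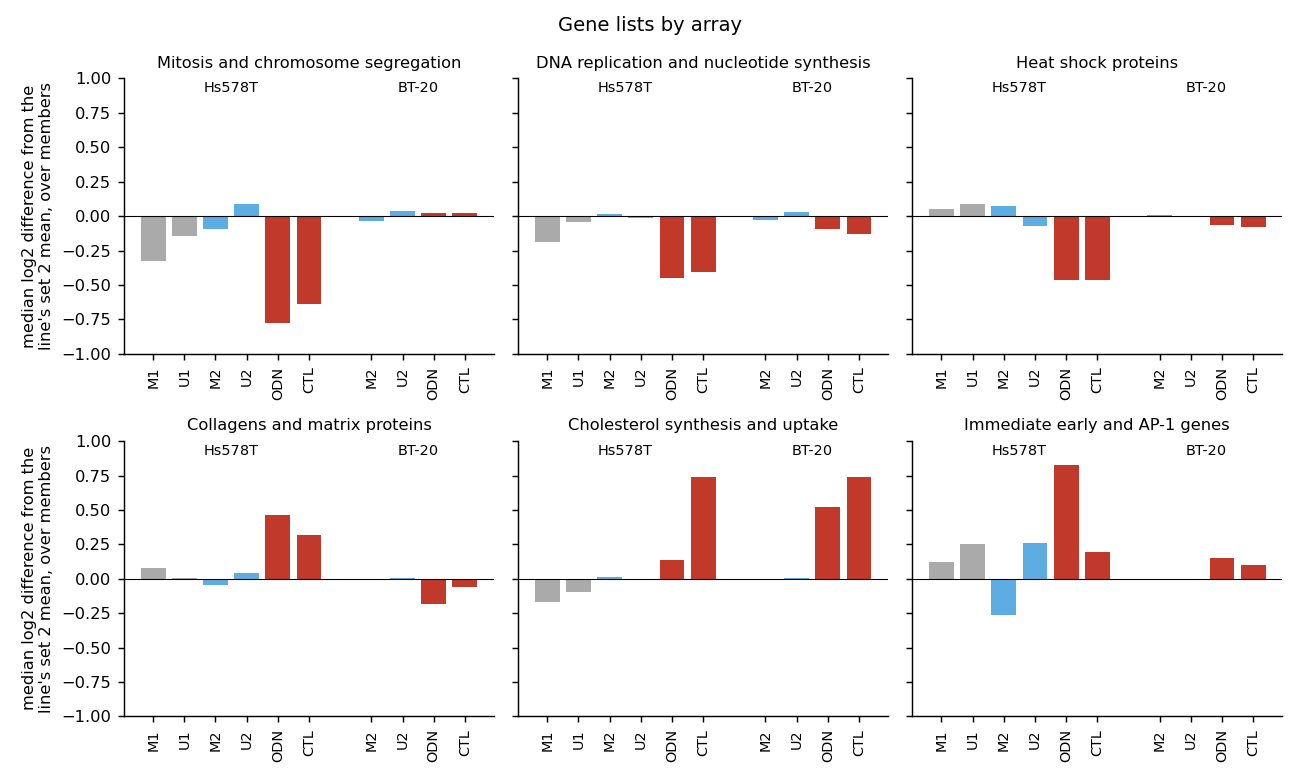
Median log2 difference of the members of 6 gene lists from the mean of the line's own set 2 arrays, 1 bar per array, in Hs578T (6 arrays, set 1 in grey, set 2 in blue, ODN2006 and ODN2006 CTL in red) and BT-20 (4 arrays). The mitosis bars of the ODN arrays reach -0.77 and -0.64 in Hs578T and 0.03 in BT-20, whereas cholesterol synthesis is above 0 in the ODN arrays of both lines.

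Single genes with a difference over 1 in both lines, with no floor on dim values, were chosen after their values were seen. There were 7 of them and 0 under -1 in both, of 227 and 163 genes past that size in Hs578T and 22 and 10 in BT-20. The largest was LOC100996756, a long non-coding RNA, which was at background in every double-stranded array of Hs578T, at 2.04 to 2.10. It read 9.26 with ODN2006 and 7.01 with ODN2006 CTL in Hs578T, and 7.67 and 5.45 in BT-20 against 2.23 in both set 2 arrays. In both lines ODN2006 was the higher of the pair. Its adjusted p in Hs578T was 0.0861 in 4 arrays and 0.0174 in 8. The others were CD101, GCNA, LINC-PINT, RASSF1, PABPC1L and CHD2.

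**Figure D4:**
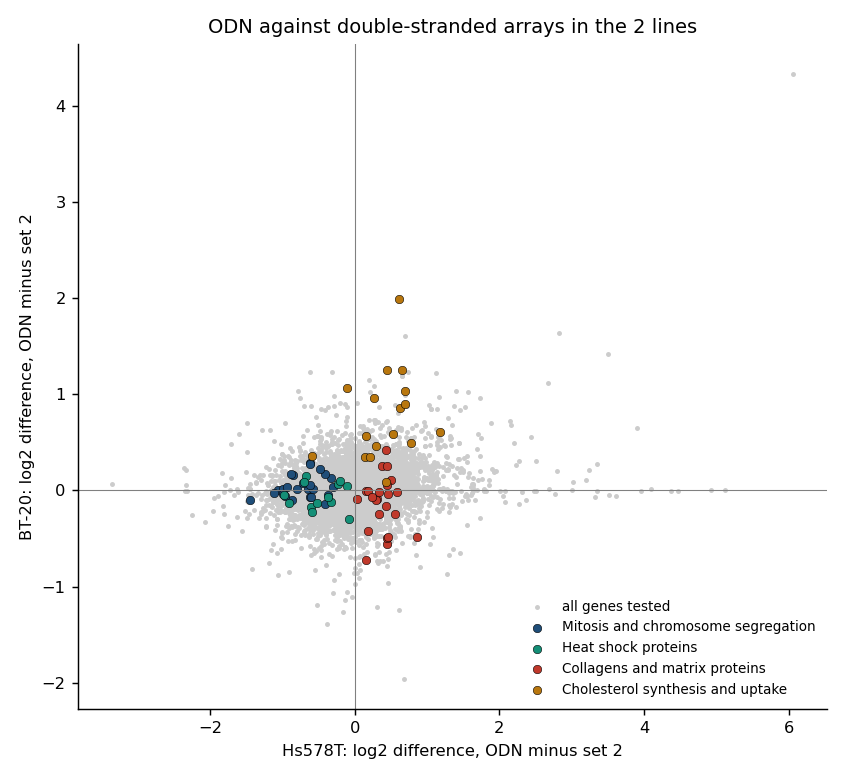
Log2 difference between the ODN arrays and the set 2 arrays in Hs578T (x axis) and in BT-20 (y axis) for the 9531 genes tested in Hs578T, 1 point per gene, with 4 lists in colour. Mitosis and heat shock genes lie left of 0 and near 0 on the y axis, collagen and matrix genes right of 0, cholesterol genes mostly above 0 on the y axis, and the point at the upper right is LOC100996756.

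How large is the difference between kinds of oligonucleotide beside that between cultures? The SD of the gene-wise differences was 0.486 between the means of the ODN and set 2 arrays and 0.333 between the means of set 2 and set 1. It was 0.362 between ODN2006 and ODN2006 CTL and 0.386 between CDH13 M and U of set 2, each a difference of single arrays. Set 2 against set 1, where oligonucleotides are the same and culture and array batch differ, gave 27 calls, 0.282% of 9573 genes, 26 of them lower in set 2, and 1478 genes had an unadjusted p under 0.05. B4GALNT1 was the 1 gene called in both comparisons. Median differences of set 2 minus set 1 were 0.23 for mitosis, -0.06 for heat shock proteins, -0.04 for collagen and matrix genes and -0.39 for cytokines. The part of culture in the ODN differences of mitosis genes and cytokines was not tested.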

How the data were processed

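RNA of Hs578T and BT-20 cells was labelled with biotin and hybridized to Affymetrix HG-U133 Plus 2.0 arrays. The authors deposited 1 log2 GCRMA value for each of 54675 probe sets and 12 arrays (R 2.4 per the labels), and the files do not state whether all arrays were normalized together. The paper read for background does not describe these arrays. Array batch was read from array names in the labels.

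Of the probe sets, 41097 had 1 gene in the probe table, 1801 several and 11777 none. Symbols of 41043 were updated through RefSeq GRCh38.p14, and the probe set with the highest mean over 12 arrays stood for each of 19775 genes. CDH13, and list members unnamed in the table, are not reported here. A gene was tested where at least 2 of the arrays compared read 5 or more. Linear models of the group means with moderated variances were fitted in R 4.3.3 (limma 3.58.1), and p-values were adjusted by Benjamini-Hochberg with a threshold of 0.05. The fits were ODN against set 2 in Hs578T (4 arrays, 2 residual degrees of freedom), the difference of that contrast between lines (8 arrays) and set 2 against set 1. P-values measure the spread between these arrays, each of which is 1 culture per oligonucleotide. SE is that of limma, and folds called "at least" use values under 5 raised to 5. The p-values given beside such folds are those of the values as deposited.

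The members, the lists and the tests were chosen with earlier results of these data known. Named genes were the largest 15 calls in each direction whose arrays did not overlap, the 4 members of each list with the smallest p (6 where a member passed), and CHAC1, TBP, CDH13 and TLR9. The cell cycle homology region, the CCAAT box and the heat shock element core were added after values were seen. The ATF4 composite element and, with no match printed here, the core motifs of the interferon response, sterol regulatory, unfolded protein response, AP-1 and NF-kB elements were searched on both strands as well. Fits were checked on simulated data. Alternatives were other arrays in the fit, filters, scalings, probe set summaries, and each array left out.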

Additional observations from a re-analysis of the deposited data

Results flagged for a closer look

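The log2 difference between the ODN and set 2 arrays differed between Hs578T and BT-20, by the limma test of the difference adjusted over 10375 genes, for 15 of the genes that could be named. The difference in Hs578T minus that in BT-20 was 5.11 for FOXL1, 4.92 for LMO7DN, 4.38 for GP5, 4.08 for SLC6A13, 3.39 for NEK10 and 3.36 for SHC4. It was 3.10 for LINC00597, 3.03 for LOC389834, 2.48 for MFNG, 2.02 for CCL2, 1.98 for RSKR, 1.89 for MIR3682 and 1.68 for PKD1P1. For the genes that fell in Hs578T it was -2.59 for B4GALNT1 and -2.55 for ISM1. Apart from LOC389834 and MIR3682, these genes were under 5 in all 4 BT-20 arrays, and most were under 5 on one side in Hs578T, so these sizes hold values at background and give no order. With values under 5 raised to 5 they were 3.17 for FOXL1, 2.47 for LMO7DN, 1.93 for SLC6A13, 1.90 for LOC389834, 1.89 for MIR3682, 1.77 for GP5, 1.73 for CCL2, 1.65 for LINC00597 and 0.33 to 0.96 for the other genes that were higher, and -1.95 for ISM1 and -1.41 for B4GALNT1.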

How the results depend on the processing

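The 16 calls between the ODN and set 2 arrays of Hs578T became 212 with 6 arrays in the fit, 937 with 8, 1600 with 12 and 667 with both sets of double-stranded arrays. There were 54 with a trended, robust prior, 32 with every probe set tested for itself and 8 with probe sets averaged. Values under 5 raised to 5 left 1 call, FOXL1, and there were 0 without a filter and 0 with 5 required in all 4 arrays. Leaving out 1 array gave 0 to 13 calls, with 0 without CDH13 M or U of set 2 and 6 without ODN2006. The 28 genes that differed between lines became 67 without a filter and 50 with values raised to 5. They were 7 to 155 with 1 array left out, at 155 without CDH13 U or ODN2006 CTL of Hs578T, 16 without its ODN2006, 7 without CDH13 M or U of BT-20 and 10 without its ODN2006. The 27 calls of set 2 against set 1 became 5, 10 and 41 without a filter, with values raised to 5 and with centring on housekeeping genes, and 0 to 34 with 1 array left out, at 0 without CDH13 U and 3 without CDH13 M of set 1. The causes were not tested.

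No list member passed with 4 arrays. With 6, 8 and 12 arrays, both sets together and the trended prior, 10, 14, 16, 10 and 2 mitosis genes and 2, 5, 8, 3 and 1 heat shock genes passed. With 8 and 12 arrays, 2 and 2 collagen and matrix genes and 5 and 5 immediate early genes passed, and with both sets together 3 of the latter. Centring on housekeeping genes moved the split of all genes from 2159 higher and 3111 lower to 3229 and 2069. The sign turned for ATP6V1H (0.029), LUC7L3 (0.50) and CDH11 (0.0039) with probe sets averaged, for RPL18 (0.0055) and RPL14 (0.0042) with that centring, and for DSP (-0.021) and TBP (-0.0067) with both sets together. TBP ran from -0.063 to 0.30 with 1 array left out. No paired analysis was possible because the ODN arrays carry no number that ties them to a set. The number of arrays, and signals near background, limit these results.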
